A study of Mus musculus with 57 samples.

Results

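Lithium was compared with vehicle over both Shank2 genotypes in 37 of the 57 prefrontal cortex libraries of the series. The 19 lithium libraries came from 10 mice heterozygous for Shank2 (HT) and 9 wild-type mice (WT), and the 18 vehicle libraries from 10 HT and 8 WT mice. The other 20 libraries, from mice given fluoxetine, entered the same fit and 1 comparison at the end. Membership followed the drug named in each label, and no measured value was used. All mice were of the strain C57BL/6N, of both sexes, and were sampled on postnatal day 25 after the drug or vehicle had been passed through the mother's milk from day 3 to day 24. HT and WT differ by 1 copy of Shank2, a scaffold gene of the excitatory synapse. The sources used here do not give the allele, the lithium dose, the make-up of the vehicle or the litters. Because each mother carried the drug to her whole litter, littermates may resemble each other for other reasons, and the p-values reflect no more than the spread among the sampled mice.

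Lithium is a mood stabilizer. It inhibits glycogen synthase kinase 3, a kinase that marks β-catenin for destruction, and it inhibits phosphatases that recycle inositol from second messengers. In neurons the same kinase bears on translation, lipid synthesis, the circadian clock and excitability, and transcripts of these processes are read below by role. The gene lists and their members were chosen with earlier results of these data known. The called shares of the lists below are therefore descriptions and not tests.

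Each value is a normalized estimated count per gene, and each change is the difference lithium minus vehicle of log2(value + 1), taken in HT females, HT males, WT females and WT males and averaged with equal weights. Shank2 bore out the genotype labels: it ran from 3908 to 5007 in the HT libraries of both treatments and from 6762 to 11791 in the WT libraries. It did not pass for lithium (log2 difference 0.09 ± 0.04 SE, adjusted p = 0.189 by limma). Normalized totals, which the authors' scaling sets nearly equal, were 30.4 to 33.2 M per library, and the read depth is unknown. The tissue held cortical neurons, with a mean of 58630.0 for Slc17a7, the vesicular glutamate transporter of cortical excitatory cells. In 5 lithium and 3 vehicle libraries the mean of 22 striatal projection neuron markers lay over 0.5 log2 above its average, and counts are also given without these 8 libraries.

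Lithium was followed by many small changes of expression. Percentages in this paragraph and the next are of all 16659 genes tested. Of 16659 genes tested, 2216 (13.3%) were called at an adjusted p under 0.05 by limma with the Benjamini-Hochberg method, 1193 higher (7.16%) and 1023 lower (6.14%), and 4644 (27.9%) had an unadjusted p under 0.05. The median size of a called change was 0.16 on the log2 scale, and 56 called genes changed by over 0.5. Without the 8 libraries high in striatal markers, 876 genes were called, 850 of them among the 2216. Transcript length moved with the drug: longer transcripts were relatively higher and shorter ones relatively lower in lithium than in vehicle libraries. With a term for that trend in the fit, 174 genes (1.04%) were called, 97 of them (0.582%) among the 2216 with the same direction, and over the 2216 the median size went from 0.16 to 0.08 while the median standard error over all genes went from 0.05 to 0.06. The trend was instead removed within each library in an alternative added after the data were seen, called length centring below. It called 1897 genes (11.4%), 1558 of them (9.35%) among the 2216 with the same direction. The trend itself went with lithium against vehicle, and the parts of drug and trend in a change cannot be told apart.

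A change was counted as shared by the genotypes when the gene was called over both, moved the same way in HT and in WT, and had an unadjusted p under 0.05 in each. This held for 917 genes (5.5%), 420 higher (2.52%) and 497 lower (2.98%). The number was 456 without the 8 libraries, 414 of them among the 917. It was 151 with the length term, and 69 of the 917 were then still called over both genotypes with the same direction (0.414%). Of the 2216 genes, 1872 (11.2% of all genes tested) had the same direction in all 4 strata of genotype and sex. The 2216 were called on the mean of these 4 differences, which favours equal directions. Called alone, HT gave 148 genes (0.888%) and WT gave 1421 (8.53%), and 76 genes (0.456%) were called in both with 1 direction, 15 higher (0.09%) and 61 lower (0.366%). With single libraries left out the HT count ran from 56 to 270 and the WT count from 796 to 1979. Of the 2216 genes, 1002 were called in neither genotype alone. No gene had lithium and vehicle ranges that stayed apart in both genotypes: 13 genes (0.078%) had ranges that did not overlap in HT and 48 (0.288%) in WT.

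**Figure D1:**
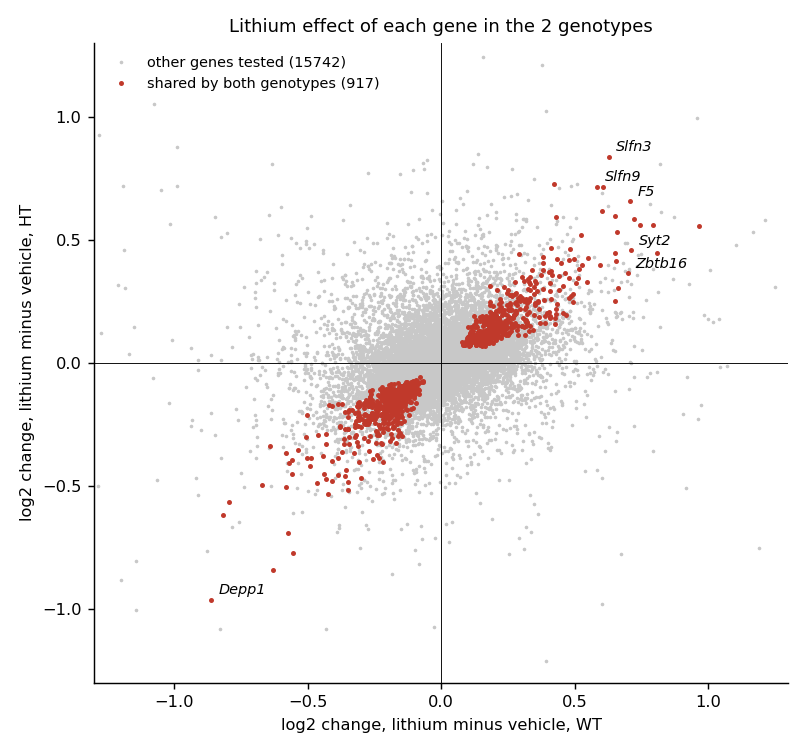
Each point is 1 of the 16659 genes tested, with its lithium minus vehicle change on the log2 scale in WT (horizontal) and HT (vertical). Red points are the 917 shared genes, which by their definition lie in the quadrants of equal direction; 40 genes lie outside the axes, which end at 1.3.

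The genes with the smallest p were of mixed roles, among them kinase genes and a calcium sensor gene, and no list of such genes was tested. Pnck, a calcium/calmodulin-dependent protein kinase gene of the brain (ENSMUSG00000002012, GRCm38 chromosome X, 73655994 to 73660117), gave the smallest p of all. Its normalized count ran from 1662 to 1913 with a median of 1815 in HT vehicle libraries and from 1201 to 1736 with a median of 1351 in HT lithium libraries. In WT it ran from 1528 to 1984 with a median of 1727 under vehicle and from 1096 to 1386 with a median of 1192 under lithium. The WT ranges did not overlap, and in HT 9 of 10 lithium libraries lay below every vehicle library. Pnck fell by 0.44 ± 0.04 on the log2 scale, a change of -26.1% (adjusted p = 1.11e-10 by limma), and it still fell with the length term (-0.36, adjusted p = 1.07e-05).

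Hpca, which encodes the neuronal calcium sensor hippocalcin, fell by 0.28 ± 0.04 (adjusted p = 3.06e-06). Its HT lithium libraries had a median of 10049 against 11331 under vehicle, and its WT lithium libraries one of 9266 against 12030. In HT 9 of 10 lithium libraries lay below every vehicle library, and in WT 2 of 9 did, since vehicle values there spread from 8946 to 14840. Further falls in this group of smallest p were Fam173a (-0.26), Eif4h, a helper of translation initiation (-0.15), and the ribosomal gene Rpl17 (-0.25).

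Mest, an imprinted gene expressed from the paternal copy (chromosome 6, 30723547 to 30748465), gave the smallest p among rises. It ran from 1099 to 1376 (median 1240.0) in HT vehicle and from 1324 to 1773 (median 1611) in HT lithium libraries. In WT it ran from 943 to 1328 (median 1187) under vehicle and from 1452 to 1824 (median 1739) under lithium, with no overlap. The rise was 0.43 ± 0.06 (adjusted p = 2.92e-06 by limma), and 0.24 with the length term (adjusted p = 0.0275). Cdkl2, a cyclin-dependent kinase-like gene, rose by 0.23 and Nuak1, an AMPK-related kinase gene, by 0.31, and for both the WT ranges did not overlap. In HT, 7 of 10 lithium libraries of Cdkl2 and 2 of 10 of Nuak1 lay above every vehicle library. Tug1, a long noncoding RNA (0.16), and Daam1, a formin downstream of Wnt receptors (0.17), rose as well. Uck2, of pyrimidine salvage, rose by 0.23 in the pooled comparison and was called in each genotype.

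The genes called in each genotype separately also included Ptov1 (-0.21), the proteasome activator Psme1 (-0.26), the detoxifying enzyme Gstp1 (-0.21) and the phosphatase activator Ptpa (-0.16). Gstp1 has a near-identical neighbour gene, so its value is uncertain. Ribosomal protein genes called in each genotype are described further on.

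In the pathway lithium is best known for, transcripts of the β form of the kinase and of its target moved, in opposite directions. The list for this pathway was called about as often as all genes (13.5% against 13.3%). Ctnnb1, which encodes β-catenin (chromosome 9, 120929216 to 120960507), ran from 20300.1 to 23057 (median 21902) in HT vehicle and from 17545 to 22626 (median 18668) in HT lithium libraries. In WT it ran from 18379 to 25789 (median 21564) under vehicle and from 17407 to 20528 (median 18156) under lithium. In HT 9 of 10 lithium libraries lay below every vehicle library, and in WT 5 of 9 did. The fall was 0.22 ± 0.03, a change of -14% (adjusted p = 3.06e-06 by limma), and 0.14 with the length term (log2 change -0.14, adjusted p = 0.0223).

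Gsk3b, which encodes the β form of the kinase, rose by 0.21 ± 0.04 (adjusted p = 0.000366). Its medians were 7203 under vehicle and 8412 under lithium in HT, and 7064 and 7971 in WT. With the length term its value was 0.05 (adjusted p = 0.527). Gsk3a, the α form, was at -0.01 ± 0.03 (adjusted p = 0.909).

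Frat1, which encodes a protein that binds the kinase and keeps it from β-catenin, fell by 0.45 ± 0.07 (adjusted p = 3.13e-05 by limma), a change of -26.5%. It ran from 239 to 325 (median 253) in HT vehicle and from 162 to 243 (median 204) in HT lithium libraries. In WT it ran from 223 to 347 (median 294.0) under vehicle and from 134 to 246 (median 211) under lithium. The ranges overlapped at their edges, and 9 of 10 HT and 6 of 9 WT lithium libraries lay below every vehicle library. Ccnd2, cyclin D2, a growth gene that β-catenin can drive, rose by 0.30 ± 0.05, with medians of 3408 and 3986 in HT and 3193 and 3958 in WT. With the length term it was at 0.20 (adjusted p = 0.0619).

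Ahi1, whose product has been described as a partner of β-catenin at the primary cilium, was chosen after its values were seen. It fell by 0.27 ± 0.04 (adjusted p = 8.27e-06 by limma), with medians of 5453 and 4721 in HT and 5699 and 4418 in WT, and 8 of 10 HT and 7 of 9 WT lithium libraries lay below every vehicle library. Of the 37 tested genes of the list for this pathway, which does not hold Frat1 or Ahi1, 3 rose (Ccnd2, Gsk3b and the receptor Fzd3 at 0.15) and 2 fell (Ctnnb1 and the receptor Fzd9 at -0.20). The called share of 13.5% was close to the 13.3% of all genes, and the list's median was -0.01.

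Of the other enzymes that lithium inhibits directly and their relatives, Impad1 alone passed the test. Of the inositol phosphatases, Impa1 was at -0.00 ± 0.03 (adjusted p = 0.967), Impa2 at 0.21 ± 0.19 (adjusted p = 0.512) and Inpp1 at 0.03 ± 0.07 (adjusted p = 0.846). The nucleotidase Bpnt1 was at 0.01 ± 0.03 (adjusted p = 0.856), and its relative Impad1 rose by 0.09 ± 0.03 (adjusted p = 0.0149), though not with the length term (0.02, adjusted p = 0.822). Of 28 tested genes of inositol metabolism, 4 rose and 1 fell, a called share of 17.9% against 13.3% of all genes, with a median of 0.02. None passed with the length term. The others that rose were Ipmk, an inositol phosphate kinase (0.12), Plcb1, the phospholipase that opens the pathway (0.14), and Ppip5k1 (0.08), and Ip6k1 fell (-0.10). Without the 8 libraries high in striatal markers 1 rose.

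Genes that glucocorticoids and FOXO factors induce were lower under lithium more often than higher. FOXO factors are transcription factors that insulin signalling keeps out of the nucleus, and their target genes overlap with those of stress hormones. Of 40 tested genes, 10 fell (25%, against 6.14% of all genes) and 2 rose, with a median of -0.11 against 0.00 over all genes. With length centring 10 fell and 3 rose, with the length term 4 fell and 1 rose, and without the 8 libraries 6 fell and 2 rose.

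Ddit4, whose product restrains mTORC1 signalling (chromosome 10, 59949669 to 59951834), had the smallest p of the group. It ran from 1354 to 1844 (median 1553) in HT vehicle and from 1027 to 1485 (median 1149) in HT lithium libraries. In WT it ran from 1441 to 2086 (median 1736) under vehicle and from 984 to 1733 (median 1326) under lithium. In HT 8 of 10 and in WT 7 of 9 lithium libraries lay below every vehicle library. The fall was 0.40 ± 0.06, a change of -24.4% (adjusted p = 4.56e-05 by limma), and it was no smaller with the length term (-0.46, adjusted p = 0.00337).

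Depp1, a FOXO target, had the largest fall of the shared genes. It ran from 27.8 to 95.4 in HT vehicle and from 16.5 to 59.6 in HT lithium libraries. WT vehicle libraries spanned 40.4 to 103 and WT lithium libraries 16.3 to 58.4. The groups overlapped, yet all 10 HT and all 9 WT lithium libraries lay below the median of their vehicle group. The log2 change was -0.91 ± 0.17 (adjusted p = 0.00032 by limma), and -1.10 with the length term.

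Cebpd, a transcription factor induced by stress hormones, fell by 0.41 ± 0.09 (adjusted p = 0.00135). Its HT medians were 108 under vehicle and 69.1 under lithium and its WT medians 132 and 119. Among the other members that fell were Sult1a1, a sulfotransferase (-0.54), Nfkbia, the inhibitor of NF-κB (-0.29), Sesn1 (-0.17), Arrdc2 (-0.27) and Cebpb (-0.26). Mt1, described below, is a member as well.

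The 2 members that rose were Zbtb16, a transcription factor that glucocorticoids strongly induce, and Gadd45a, a stress gene (0.31). Zbtb16 rose by 0.53 ± 0.11 (adjusted p = 0.00158), with medians of 886 and 1260 in HT and 907 and 1515 in WT, and kept its call with the length term (0.56, adjusted p = 0.0453). Against fluoxetine libraries Zbtb16 did not pass, as given near the end. Sgk1, a kinase that the glucocorticoid receptor induces, was at -0.17 (adjusted p = 0.0517).

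**Figure D2:**
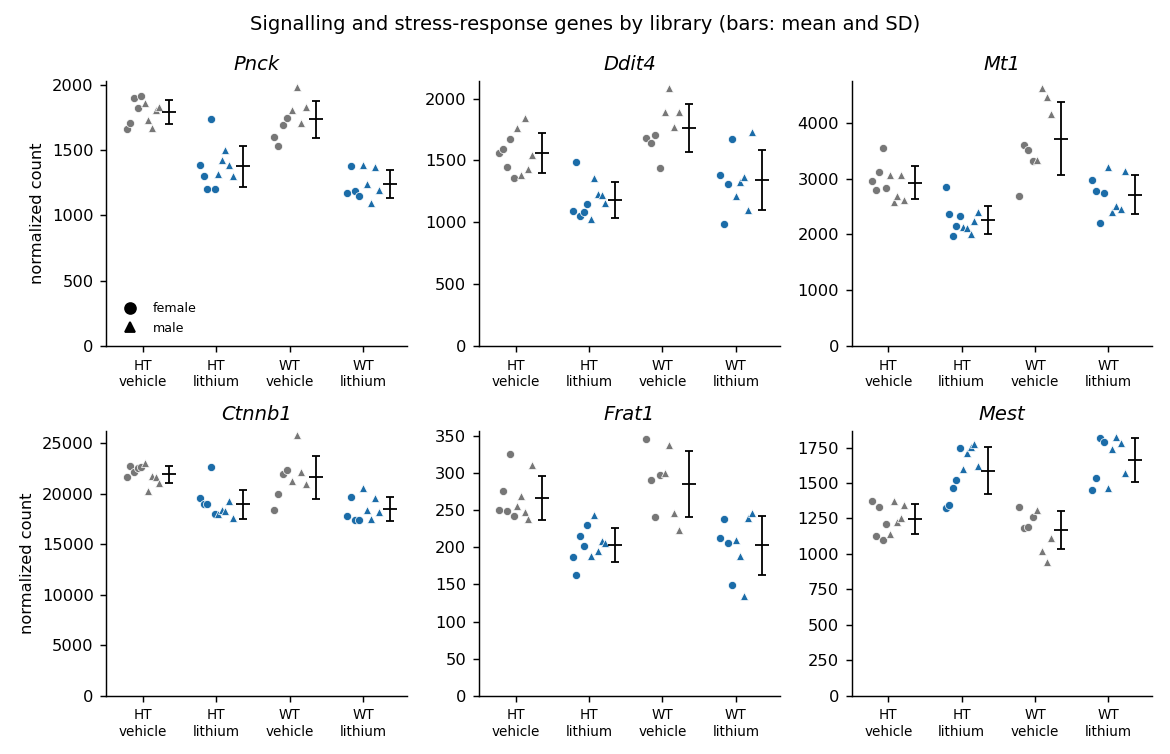
Normalized count in every lithium and vehicle library (vertical, from 0) for 6 genes, by genotype and drug, with circles for females, triangles for males, and bars for the mean and SD of each group (n = 10, 10, 8 and 9 from left to right). Pnck, Ddit4, Mt1, Ctnnb1 and Frat1 lay lower and Mest higher under lithium in both genotypes, with overlap in most groups.

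The metallothioneins Mt1 and Mt2, small metal-binding proteins that metals and glucocorticoids induce, fell together. The fall of Mt1 is already counted in the glucocorticoid and FOXO list above. Mt1 ran from 2587 to 3556 (median 2899) in HT vehicle and from 1974 to 2856 (median 2189) in HT lithium libraries. In WT the range was 2686 to 4615 (median 3552) under vehicle and 2209 to 3211 (median 2750.0) under lithium. In HT 9 of 10 and in WT 4 of 9 lithium libraries lay below every vehicle library. Mt1 fell by 0.41 ± 0.08 (adjusted p = 0.000245 by limma) and Mt2 by 0.38 ± 0.10 (adjusted p = 0.00944). Neither passed with the length term, at -0.18 and -0.08, and their median transcript lengths are 633 and 449.5 bases. Mt2 was at -0.39 without the 8 libraries high in striatal markers (adjusted p = 0.0538).

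The genes are neighbours on chromosome 8. The 250 bases before each RefSeq start are shown because both fell and because metals act on them through short metal response elements, whose core is written here as TGCACNC or TGCGCNC, searched on both strands and set in capitals (RefSeq, GRCm38.p6, + strand, chr8:94178839-94179088 for Mt1 and chr8:94172368-94172617 for Mt2). The core occurred 1 time in the Mt1 window and 3 times in the Mt2 window, and 21.4% of all 32851 promoter windows of this length held it. Bases outside the windows were not searched, so these counts need not be those of the whole promoters.
Mt1: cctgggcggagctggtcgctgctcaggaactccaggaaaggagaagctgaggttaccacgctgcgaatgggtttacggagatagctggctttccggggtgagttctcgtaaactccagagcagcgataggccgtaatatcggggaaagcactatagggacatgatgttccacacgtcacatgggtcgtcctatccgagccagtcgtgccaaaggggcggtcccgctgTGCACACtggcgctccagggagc
Mt2: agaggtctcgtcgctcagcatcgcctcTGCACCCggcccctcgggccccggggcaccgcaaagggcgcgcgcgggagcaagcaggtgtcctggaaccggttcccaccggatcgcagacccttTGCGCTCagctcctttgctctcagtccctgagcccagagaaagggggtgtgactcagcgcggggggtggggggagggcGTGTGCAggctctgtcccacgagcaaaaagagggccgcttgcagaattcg

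Genes of cholesterol synthesis were higher under lithium. Cells make cholesterol from acetyl-CoA in a long enzyme chain, and its genes are switched on together by SREBP2 when sterols run low. Of 25 tested genes, 9 rose (36%, against 7.16% of all genes), none fell, and the median was 0.13. The medians in HT and WT were 0.13 and 0.11. With length centring 8 rose, with the length term none did although the median stayed at 0.10, and without the 8 libraries 3 rose with a median of 0.12.

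Sc5d, a desaturase late in the chain, had all 9 WT and 9 of 10 HT lithium libraries above every vehicle library. Its medians were 2625 and 2943 in HT and 2548 and 3008 in WT, a rise of 0.22 ± 0.04 (adjusted p = 0.000471). Hsd17b7, also of the later steps, ran from 633 to 833 (median 718.5) in HT vehicle and from 738 to 977 (median 801.5) in HT lithium libraries. For WT the span was 553 to 847.5 (median 699.6) under vehicle and 732 to 925 (median 815) under lithium. The ranges overlapped, with all 10 HT and all 9 WT lithium libraries above the median of their vehicle group. Hsd17b7 rose by 0.23 ± 0.05 (adjusted p = 0.000939 by limma). Among the others that rose were Nsdhl by 0.17, Sqle, which makes the epoxide before ring closure, by 0.17, Dhcr7 by 0.14, Cyp51 by 0.14 and Hmgcs1 by 0.18. The last of these had an adjusted p of 0.0459. Sqle was at 0.13 without the 8 libraries (adjusted p = 0.207).

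Scd1, which introduces the double bond of monounsaturated fatty acids and stands outside the list, was chosen after its values were seen. It ran from 3724 to 4819 (median 4319) in HT vehicle and from 4003 to 6782 (median 5492) in HT lithium libraries. WT vehicle libraries spanned 3543 to 5327 (median 4679.7) and WT lithium libraries 5172 to 6997 (median 5693). It rose by 0.34 ± 0.06 (adjusted p = 0.000129 by limma), and by 0.32 with the length term (adjusted p = 0.0277).

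SREBP factors bind sterol regulatory elements, here written as TCACNCCAC on either strand. Of 17 cholesterol genes with a RefSeq window, 1 held this motif in the 250 bases before the start, namely Hmgcs1, the first committed synthase, against 1.05% of all 32851 windows. Its window (RefSeq, GRCm38.p6, + strand, chr13:119690101-119690350) is shown with the match in capitals.
Hmgcs1: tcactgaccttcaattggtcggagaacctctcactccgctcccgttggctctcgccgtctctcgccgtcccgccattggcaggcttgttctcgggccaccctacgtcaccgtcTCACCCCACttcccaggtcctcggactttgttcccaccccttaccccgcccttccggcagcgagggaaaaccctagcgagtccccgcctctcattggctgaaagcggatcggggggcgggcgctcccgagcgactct

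Ribosomal protein genes were lower under lithium almost as a class. Of 79 tested genes of the cytosolic ribosome, 65 fell (82.3%, against 6.14% of all genes) and none rose, with a median of -0.20 (-0.17 in HT and -0.22 in WT). Without the 8 libraries 52 fell. These transcripts are short, with a median of 628.5 bases against 1560 for all genes, and their values moved with the length settings: with length centring 58 fell and the median was -0.16, and with the length term 3 fell and the median was -0.04. Many ribosomal protein genes have near-identical pseudogenes that can share their reads. Set against fluoxetine libraries, Rpl24, Rpl13a and Rps21 did not pass, as given near the end, so their lower level was not shown to be particular to lithium.

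Rps14, a protein of the small subunit, ran from 4006 to 4972 (median 4421) in HT vehicle and from 3149 to 4338 (median 3541) in HT lithium libraries. WT vehicle libraries spanned 4245 to 6035 (median 4670.4) and WT lithium libraries 3332 to 4897 (median 3574). In HT 9 of 10 and in WT 7 of 9 lithium libraries lay below every vehicle library. It fell by 0.32 ± 0.04 (adjusted p = 3.12e-06 by limma), and with the length term by 0.15 (log2 change -0.15, adjusted p = 0.0351).

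The other 2 genes that fell with the length term were Rpl17, for which the WT ranges did not overlap (4176 to 5633 under vehicle, 3367 to 4049.6 under lithium), and Rpl13a. Rpl24 (-0.47) had the largest fall of the list, and Rps21 (-0.38), Rpl9 (-0.32), Rpl36 (-0.31) and Rpl35a (-0.23) fell as well, each without a call under the length term. Rps21, chosen after its values were seen, had medians of 2274 and 1617 in HT and 2212 and 1901 in WT.

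Of 76 nuclear genes of oxidative phosphorylation, also short at a median of 607.5 bases, 16 fell (21.1%, against 6.14% of all genes) and none rose, with a median of -0.07. Ndufs4 (-0.25), Ndufa2 (-0.22) and Ndufa7 (-0.18), of respiratory complex I, and Uqcrq (-0.22), of complex III, were among them. With length centring 8 fell and 4 rose, and with the length term none fell, 2 rose and the median turned to 0.06. Of 13 genes encoded in mitochondrial DNA, mt-Nd3 fell (-0.60, adjusted p = 0.0319), a share of 7.69%, near the 6.14% of all genes. None of the 13 passed with the length term. Of 36 genes of ribosome assembly 3 rose (8.33%, near the 7.16% of all genes), namely Utp14b (0.37), Urb2 (0.16) and Utp15 (0.10), and none fell. None passed with the length term.

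**Figure D3:**
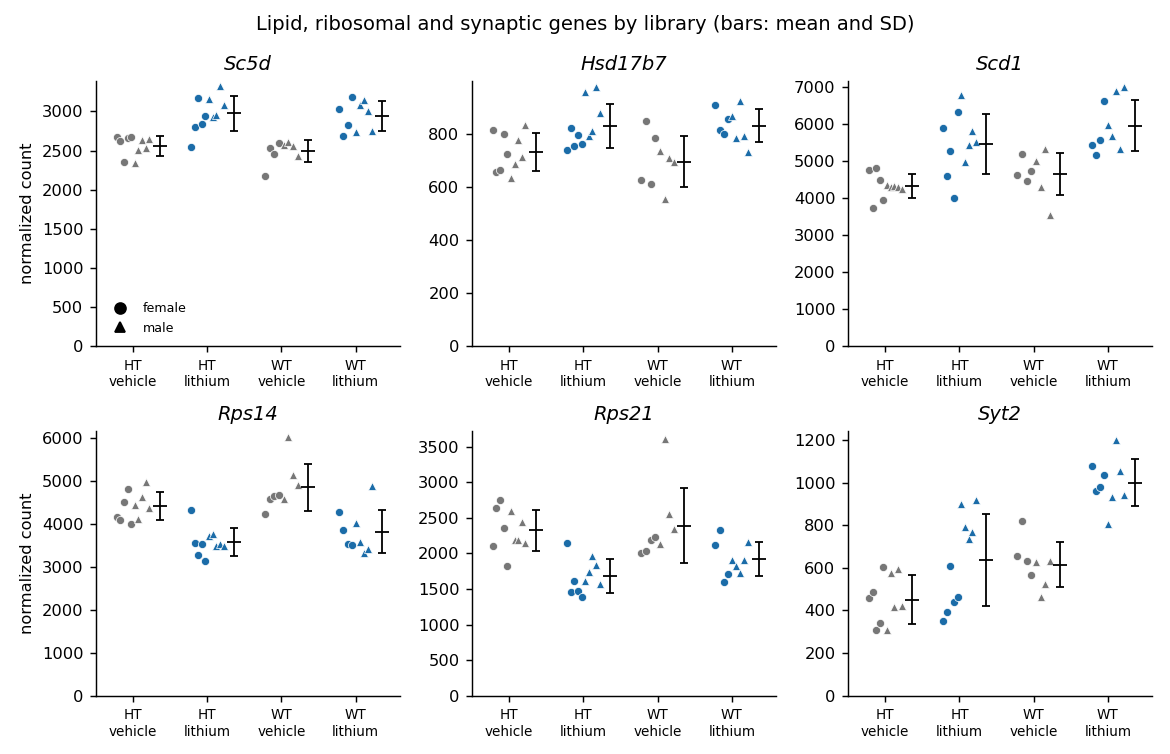
Normalized count in every lithium and vehicle library (vertical, from 0) for 6 genes of lipid synthesis, the ribosome and the synapse, by genotype and drug, with circles for females, triangles for males, and bars for the mean and SD of each group. Sc5d, Hsd17b7, Scd1 and Syt2 lay higher and Rps14 and Rps21 lower under lithium.

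Genes of neuronal excitability, whose transcripts are long, were higher more often than all genes. Of 47 voltage-gated channel genes, with a median length of 3150 bases, 17 rose (36.2%, against 7.16% of all genes) and none fell, with a median of 0.09 (0.04 in HT and 0.16 in WT). With length centring 12 rose, without the 8 libraries 10 rose, and with the length term 1 rose, 1 fell and the median was 0.02; the riser was Kcnn1 (0.28) and the faller Cacna1c (-0.24), neither called without the term.

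Kcna1, a potassium channel of axons, ran from 1483 to 2207 (median 1727) in HT vehicle and from 1503 to 2809 (median 2246) in HT lithium libraries. In WT, vehicle libraries spanned 821 to 2342 (median 1772) and WT lithium libraries 2248 to 3242 (median 2662). It rose by 0.45 ± 0.08 (adjusted p = 0.00026 by limma), with a value of 0.19 under the length term (adjusted p = 0.262). Its close relative Kcna2 (0.21), the calcium-activated Kcnma1 (0.21), Kcnh7 (0.26), the sodium channel genes Scn2a (0.24) and Scn8a (0.19), and Kcnc1 of fast-firing cells (0.17) rose too.

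Syt2, the fast calcium sensor of transmitter release, ran from 308 to 605 (median 440.4) in HT vehicle and from 348 to 919 (median 672) in HT lithium libraries. Under vehicle WT libraries spanned 461 to 822 (median 630) and WT lithium libraries 805 to 1199 (median 981). In WT 8 of 9 and in HT 6 of 10 lithium libraries lay above every vehicle library. It rose by 0.59 ± 0.11, or 50% (adjusted p = 0.000271 by limma), with 0.33 under the length term (adjusted p = 0.172).

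Of 41 genes of the vesicle cycle, 6 rose (14.6%, against 7.16% of all genes) and none fell, among them Cplx1, a clamp of the release machinery (0.18), Sv2a (0.10) and the active zone gene Bsn (0.12). Cplx1 was the member called with the length term (0.20, adjusted p = 0.0333). Without the 8 libraries 1 rose. Of 53 postsynaptic genes of glutamate synapses, 10 (18.9%, against 7.16% of all genes) rose and Agap2 fell (-0.10). With length centring 6 rose and 2 fell, without the 8 libraries 3 rose, and with the length term none rose and Grik2 fell (-0.19). The receptor genes Gria4 (0.19), Grm5 (0.20) and Grm3 (0.26), the scaffold gene Dlg2 (0.15) and Shank1, a relative of Shank2 (0.18), were among those that rose without the term. Of 22 genes of GABA signalling 5 rose (22.7%), among them the receptor subunit genes Gabra3 (0.14), Gabrb1 (0.23), Gabrb2 (0.26) and Gabrg3 (0.16). None of the 22 passed with the length term, where Gabrb2 was at -0.02.

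**Figure D4:**
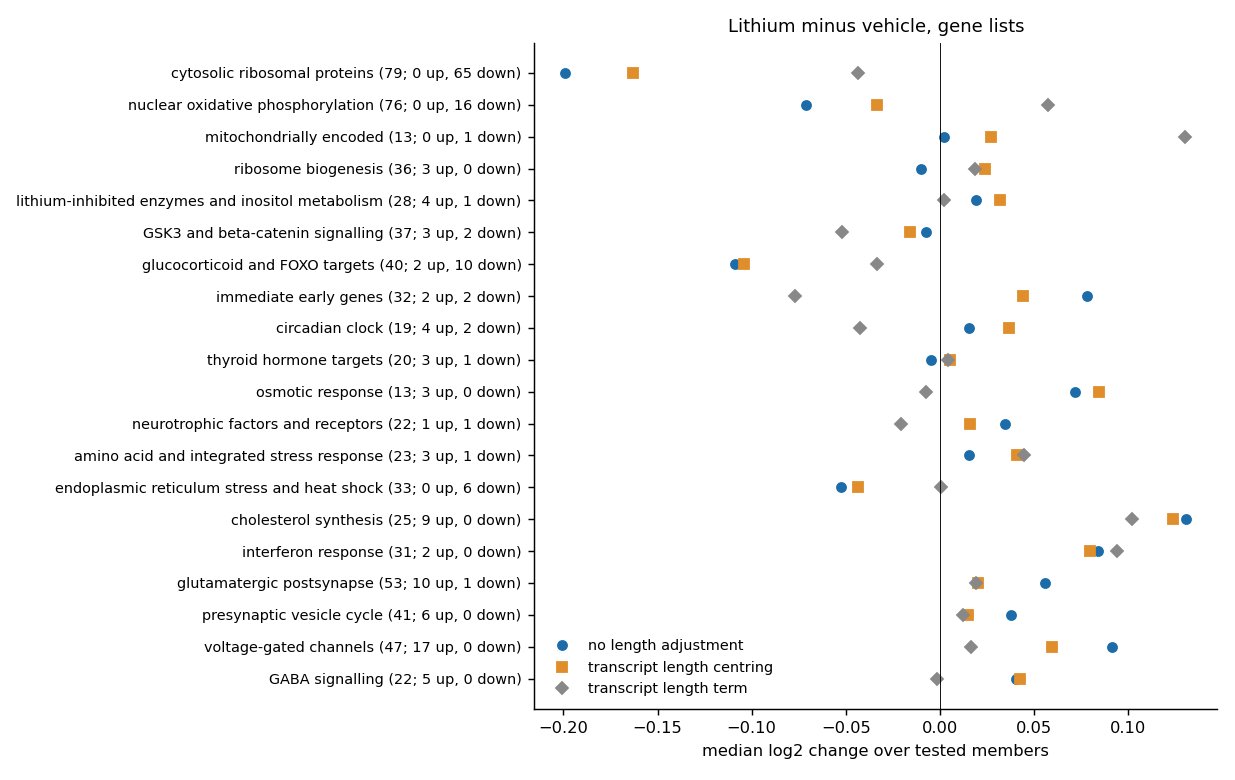
Median lithium minus vehicle change on the log2 scale (horizontal) over the tested members of each gene list (vertical, with the number tested and the numbers called higher and lower). Blue circles are without length adjustment, orange squares with length centring and grey diamonds with the length term; the ribosomal median went from -0.20 to -0.16 and -0.04, and the cholesterol median from 0.13 to 0.12 and 0.10.

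Over all genes 7.16% were called higher and 6.14% lower. The remaining lists held few called genes by number, though in some the share was above that of all genes. In the circadian clock, 4 of 19 genes rose (21.1%) and 2 fell (10.5%): Per2 (0.33), Clock (0.14), Rora (0.19) and Bhlhe40 (0.22) were higher, Nfil3 (-0.26) and Npas2 (-0.14) lower. None passed with the length term, where Clock was at -0.01. The immediate early genes, which report recent activity, were called no more often than all genes, with 2 of 32 (6.25%) higher (Ier5 at 0.32 and Dusp6, a brake on ERK, at 0.28) and 2 (6.25%) lower (Jund at -0.15 and Nfil3). None of these passed with the length term. Of 33 genes of the endoplasmic reticulum and heat shock, 6 fell (18.2%) and none rose: Hsf1 (-0.19), Hspb1 (-0.45), Creld2 (-0.28), the chaperone gene Hspa5 (-0.26), Manf (-0.24) and Dnajb1 (-0.11), with 1 falling without the 8 libraries. With length centring 4 fell and 2 rose, and with the length term none passed.

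Of 23 genes of the amino acid response, Slc7a1 (0.26), Sesn2 (0.22) and Vldlr (0.11) rose and Ddit3 (-0.26) fell, a called share of 17.4% against 13.3% of all genes. None passed with the length term, where Vldlr was at -0.02. Of 13 osmotic response genes Slc38a1 (0.14), Nfat5 (0.16) and Hspa4l (0.13) rose (23.1%, against 7.16% of all genes). None did without the 8 libraries or with the length term, where Nfat5 was at -0.08 and Hspa4l at -0.01. Among 20 thyroid hormone targets Dio3, the enzyme that inactivates the hormone, fell by 0.48 (adjusted p = 0.0123), with medians of 81.3 and 59.2 in HT and 79.9 and 48.3 in WT, while Nefh (0.23), Camk4 (0.21) and Itga7 (0.21) rose. The shares were 15% higher and 5% lower, against 7.16% and 6.14% of all genes. None of the 20 passed without the 8 libraries. With the length term none of the genes just named did, Camk4 was at -0.08, and 1 other member was called higher.

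Among 22 neurotrophic genes Vgf, a secreted neuropeptide precursor, rose by 0.17 (adjusted p = 0.0282), with medians of 5299 and 5799 in HT and 5946 and 6396 in WT, and Igf2 fell by 0.25. These are shares of 4.55% higher and 4.55% lower, against 7.16% and 6.14% of all genes. Bdnf, often measured after lithium, was at 0.14 (adjusted p = 0.148), and at 0.30 with the length term (adjusted p = 0.035).

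The largest rises among shared genes were mostly of low expression. Slfn3 (0.73 ± 0.14, adjusted p = 0.000471 by limma) and Slfn9 (0.65 ± 0.13, adjusted p = 0.000483), of the Schlafen family of interferon-regulated genes on chromosome 11, were among the 10 largest once predicted genes were set aside. Slfn3 ran from 5.11 to 11.99 in HT vehicle and from 13.4 to 20.2 in HT lithium libraries, with no overlap. The WT ranges overlapped, as vehicle libraries spanned 2.04 to 12.6 and WT lithium libraries 9.80 to 18.8. Slfn9 had medians of 21.3 and 32.9 in HT and 23.1 and 33.7 in WT. Slfn5 (0.29) rose as well, and these paralogs may share reads, which makes each value uncertain. With Slfn9 and Slfn5, 2 of 31 interferon response genes rose (6.45%, against 7.16% of all genes).

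F5 (0.68), Cfap52 (0.68), Papolb (0.65), Spink10 (0.62), Lingo4 (0.60), Vmn2r85 (0.58) and Il1a (0.55) completed the 10 with Syt2, and Vmn2r85 belongs to a receptor family with similar members. Of these 10, Slfn9 and Spink10 passed with the length term and the others did not, and Cfap52, Lingo4, Vmn2r85 and Il1a did not pass without the 8 libraries. Spink10, a protease inhibitor gene, was the most expressed of these after Syt2, with medians of 147 and 206 in HT and 139 and 219 in WT. The 10 largest falls, likewise without predicted genes, were Depp1, Tmem82 (-0.72), Cryba4 (-0.58), Sult1a1, Prph (-0.51), Snhg20 (-0.49), Tagap (-0.49), Dio3, Bfsp2 (-0.48) and Rpl24. Of these, Depp1 and Tagap passed with the length term, and Tmem82, Cryba4, Sult1a1, Tagap and Dio3 did not pass without the 8 libraries.

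Few cell type markers passed the test. In bulk tissue, fewer cells of a type and less RNA per cell cannot be told apart. The mean level of the 12 markers of oligodendrocyte precursors, the dividing cells that make myelin-forming glia, was 0.11 lower under lithium on the log2 scale (difference -0.11, permutation p = 0.00421, adjusted over 14 library measures 0.0295), lower in all 4 strata. It ran from -0.16 to 0.19 under lithium and from -0.18 to 0.33 under vehicle, so the groups overlapped. The difference was -0.07 in HT and -0.14 in WT. Fluoxetine libraries, not tested for this measure, ran from -0.20 to 0.13. Neu4 (-0.28), Olig2 (-0.31) and Cspg4 (-0.19) fell (25%, against 6.14% of all genes). The other 9 did not pass, with Pdgfra, a defining marker, at 0.08 (adjusted p = 0.349 by limma).

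Over all genes 7.16% were called higher and 6.14% lower. Of 24 astrocyte markers Mlc1 (-0.15) and Gpc5 (-0.12) fell (8.33%). Of 22 markers of mature oligodendrocytes none passed, and of 24 microglial markers Tyrobp fell (-0.22, a share of 4.17%). Of 18 interneuron markers Kcnc1 (0.17) rose and Reln (-0.30) fell (5.56% each), and of 17 excitatory neuron markers Neurod6 (0.20) rose (5.88%). Abcb1a (-0.15) fell and Kdr (0.27) rose among 18 endothelial markers (5.56% each). Among 18 of the leptomeninges Lum (0.37) rose (5.56%) and Igf2 and Ptgds (-0.25) fell (11.1%). Neurod6, Kdr, Lum and Ptgds were near the threshold (adjusted p = 0.0496, 0.0437, 0.0375 and 0.042 by limma). They did not pass when the 37 lithium and vehicle libraries alone were fitted. None of 13 mural and 9 choroid plexus markers passed, and Bpgm fell among 8 blood markers (-0.10, a share of 12.5%). With the length term none of the markers named above passed, and Pvalb, of interneurons, was called higher (0.39). The mean level of the 17 excitatory markers was 0.08 higher (permutation p = 0.0388, adjusted 0.181).

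Markers of neighbouring regions varied most between libraries. The striatal mean ran from -0.62 to 1.14 under lithium and from -0.67 to 2.08 under vehicle, with a lithium minus vehicle difference of 0.28 in HT and -0.43 in WT (pooled permutation p = 0.781), and none of 22 markers passed. The olfactory bulb mean was 0.40 lower under lithium (difference -0.40, permutation p = 0.229), with a median of -0.39 over 15 genes of which none passed. The part of neighbouring tissue in the changes above was not tested beyond leaving out libraries and adding the 2 means as terms, which called 2320 genes.

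The trend with transcript length was measured in each library as a rank correlation across genes outside all lists, between transcript length and how far the library departed from the average of the rest. In HT it ran from -0.12 to 0.03 under vehicle and from -0.11 to 0.13 under lithium. WT vehicle libraries spanned -0.32 to 0.05 and WT lithium libraries -0.06 to 0.16. It lay above 0 in 16 of 19 lithium and 3 of 18 vehicle libraries. Most of the 20 fluoxetine libraries lay above 0 too, with a range of -0.12 to 0.13, so the trend is not particular to lithium. The difference was 0.12 (permutation p = 6e-05 within strata, adjusted over 14 library measures 0.00084), with 0.12 in each genotype. The median transcript length was 2415 bases among the genes called higher and 912.5 among those called lower. A trend with GC content went the other way (difference -0.09, permutation p = 0.00439), and with that trend removed in each library 2094 genes were called.

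**Figure D5:**
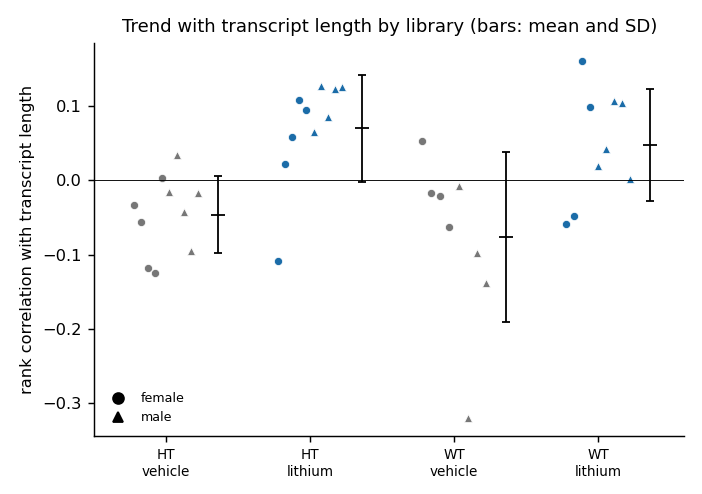
Rank correlation with transcript length (vertical) in each lithium and vehicle library by genotype and drug, with circles for females, triangles for males, and bars for the mean and SD. Lithium libraries lay above vehicle libraries on average in both genotypes, with overlap, and 1 WT vehicle male lay lowest at -0.32.

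By limma, 0 genes were called for a lithium effect that differed between the genotypes, and 1218 (7.31%) had an unadjusted p under 0.05. With array weights 1 gene was called, without HT lithium female 4 it was 1 and without WT vehicle male 2 it was 2. Over the genes called higher, the median effect was 0.11 in HT and 0.21 in WT, and over those called lower it was -0.14 and -0.18. Across all genes the HT and WT effects, which share no library, had a Pearson correlation of 0.343, or 0.327 with length centring, as a description, since both effects carry the trend. Among the named genes, Kcna1 had 0.25 in HT and 0.65 in WT, and Cebpd -0.56 and -0.26, without a called difference.

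For the sexes limma likewise called 0 differences and left 937 genes (5.62%) at an unadjusted p under 0.05. Females alone gave 11 called genes (0.066%) and males alone 2080 (12.5%). The ribosomal median was -0.14 in females and -0.24 in males, and the cholesterol median 0.09 and 0.18.

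Set against the 20 fluoxetine libraries rather than vehicle, lithium libraries differed in 777 genes (4.66%), 401 higher (2.41%) and 376 lower (2.26%). The count was 1211 without 1 library, WT vehicle male 2, 498 without the 8 libraries high in striatal markers and 2086 with array weights. The 3 with the smallest p in each direction were Cdkl2 (0.24), Ccnd1, cyclin D1 (0.37), and Spry4, a brake on growth factor signalling (0.45), higher, and Pnck (-0.32), Hpca (-0.27) and Frat1 (-0.49), lower. Both comparisons use the same lithium libraries, so the values stand side by side and are not separate evidence. Among genes chosen after their values were seen, Sqle (0.35), Scd1 (0.34), Ctnnb1 (-0.12) and Ddit4 (-0.26) also differed from fluoxetine. The ribosomal genes read here did not pass: Rpl24 was at -0.01 (adjusted p = 0.95), Rpl13a at 0.00 (adjusted p = 0.976) and Rps21 at -0.00 (adjusted p = 0.988). Zbtb16 was at -0.01 as well (adjusted p = 0.976).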

How the data were processed

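RNA of the prefrontal cortex was sequenced from stranded poly(A) libraries of 57 mice. Per the submitters' processing notes the authors used Salmon 0.11.2, DESeq2 1.19.11, R 3.6.0 and the build GRCm38. The deposited values are a normalized signal per gene, estimated counts scaled between libraries by the authors, and not raw counts: at best 9.18% to 51.3% of low values per library came out as whole reads within 0.02, so no count test was run. The sources used here do not give the strand setting or annotation release. Of 51456 identifiers, 51285 matched GENCODE M21 for names, lengths and positions, and the other 171 had no symbol.

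Genes with a mean of at least 10 were tested on log2(value + 1) with limma 3.58.1 in R 4.3.3 (trended, robust variance) over all 12 groups of genotype, drug and sex, with Benjamini-Hochberg adjustment. The lithium effect is the mean of the 4 differences within strata. Library measures were tested with 100000 permutations within strata, two-sided, or 10000 with a library left out (smallest possible p 1e-04). Named genes were the check gene Shank2, the 10 largest shared rises and falls without predicted genes, the 5 rises and falls of smallest p, up to 20 called in each genotype, up to 4 called members of each of 33 lists (13 of cell markers), 7 enzymes that lithium inhibits or their relatives, and 3 genes per direction against fluoxetine. Other list members, and the genes whose library values are given, were partly chosen after their values were seen. Members and lists were chosen with earlier results of these data known. Alternatives covered the filter, pseudocount, scaling, weights, model terms, replicate block and left-out libraries. Some were added after the data were seen. These were length and GC centring, the length term without WT vehicle male 2, and leaving out libraries high in striatal or olfactory bulb markers. The test was also run on simulated data with independent noise for each gene. These held no length trend and no litters, so that run cannot show how such features affect the calls. Some genes that the rule names are not reported here.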

Additional observations from a re-analysis of the deposited data

Results flagged for a closer look

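In 148 groups of 8 to 10 libraries, 13 held a library far from the rest by Dixon's test, which chance flags in about 1 group of 20. HT lithium female 1 stood highest of its group for Mt1 (2855.9, next 2408.1), Rpl17 (4132.9, next 3672.4) and Rps14 (4338.3, next 3776.6), and lowest for the trend with transcript length (-0.1092, next 0.02154). WT vehicle male 2 stood highest for Rpl17 (5632.9, next 4570.9) and Rps21 (3613.8, next 2553.7). Among HT lithium libraries female 2 was highest for Cebpd (124, next 78.4), female 4 highest for Ctnnb1 (22625.9, next 19586.8) and female 5 lowest for Hpca (8037.1, next 9520.6). Among vehicle libraries HT male 1 was highest for Ahi1 (6552.9, next 5748.1), HT female 3 highest for Dio3 (159.2, next 94.7), WT female 1 lowest for Sc5d (2174.2, next 2435.4) and WT male 4 lowest for Slfn3 (2.036, next 8.153).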

How the results depend on the processing

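The pooled count of 2216 and the shared count of 917 stayed within 1.5 times under other filters, pseudocounts, scalings and weights, from 1501 and 849 with no filter to 2667 and 1215 with array weights, and with each library left out, at 1721 to 2644 and 765 to 1167. With a transcript length term the counts were 174 pooled, 151 shared, 2 in HT and 66 in WT, and with WT vehicle male 2 also left out, the trend being that of all libraries, they were 180, 145, 0 and 273, with 2 genes differing between genotypes and 1231 between lithium and fluoxetine. Without the 8 libraries high in striatal markers, an alternative chosen after seeing the data that tests fewer samples, they were 876, 456, 16 and 227, with 498 against fluoxetine, and without the 3 high in olfactory bulb markers HT had 44. With no filter HT had 79, WT 884 and the fluoxetine comparison 470. With array weights HT had 391, the genotype difference 1 and the fluoxetine comparison 2086, and with striatal and olfactory terms the last had 477. The cause of these shifts was not tested.

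With single libraries left out, HT ran from 56 to 270, WT from 796 to 1979, the genotype difference from 0 to 2, the sex difference stayed at 0 and the fluoxetine comparison ran from 602 to 1211. HT moved by over 1.5 times without HT lithium females 1 or 5, males 1 or 5, HT vehicle females 2 or 3, males 1, 3 or 4, or WT vehicle male 2, and WT without WT lithium females 3 or 4, male 3, WT vehicle female 3 or male 2. The excitatory marker difference ran from 0.05459 to 0.08905 (permutation p 0.0151 to 0.081) and the blood marker difference from -0.2091 to -0.1401 (permutation p 0.0179 to 0.105).

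With the length term Clock (-0.01315), Camk4 (-0.08056), Nfat5 (-0.07681), Hspa4l (-0.0103), Vldlr (-0.02032) and Gabrb2 (-0.0157) turned negative, and without WT vehicle male 2 as well Camk4 (-0.06275), Nfat5 (-0.05716), Hspa4l (-0.01012), Vldlr (-0.01421) and Gabrb2 (-0.0004363) did. Of 124 called named or detailed genes, 102 passed with every library left out, 27 with the length term and 22 under every setting. Replicate numbers did not pair the samples: over 18 pairs the correlation of deviations ran from -0.214 to 0.0759, and 2 libraries correlated best with their own number. With the replicate block 2010 genes were called pooled, 876 shared, 149 in HT, 1233 in WT and 767 against fluoxetine. Read depth is unknown, so no limit from counting can be given.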
